A study of Mus musculus with 11 samples.

Results

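The genes described here encode the nuclear subunits of respiratory complexes III and IV and of ATP synthase. They were chosen by symbol, as every row of the pancreas and adipose count tables whose name starts with Uqcr or Atp5, is Cyc1, or starts with Cox4 to Cox8 followed by a, b, c or i, leaving out names that contain -ps. The rule found 48 rows with 46 symbols among 55350 genes, of which 10 rows belong to complex III, 19 to complex IV and 19 to ATP synthase. Of these, 46 are listed among the 54532 genes of the pancreas table and 45 among the 46078 genes of the adipose one, and 43 are named as members in both. Atp5s and Atp5sl carry an Atp5 name, but they encode accessory factors (Dmac2l and Dmac2) and not subunits of ATP synthase. Cox6c2 is a processed pseudogene.

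Complex III passes electrons from ubiquinol to cytochrome c, and complex IV passes them from cytochrome c to oxygen. Both pump protons across the inner mitochondrial membrane, and ATP synthase lets the protons flow back through its c ring and uses the energy to make ATP. Acinar cells of the pancreas need this ATP to make and secrete digestive enzymes, and several complex IV subunits come in a common form and a form made mainly in muscle, lung or testis.

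RNA was sequenced from the pancreas and the epididymal adipose tissue of male wild-type C57BL/6 mice aged 16 weeks. Control mice ate normal chow for 12 weeks and were injected with saline, and mice with obesity-related alcohol-induced acute pancreatitis (OA-AP, labelled Model) were fed high-fat chow over the same 12 weeks and received 2 intraperitoneal injections of ethanol at 2 g/kg. Diet, ethanol and pancreatitis thus differed together between the groups and cannot be told apart. The pancreas gave 2 control and 3 OA-AP libraries, adipose tissue 3 of each, and the labels do not say whether pancreas and adipose libraries came from the same mice.

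The pancreas libraries held 14188832 to 17238919 counts on genes and the adipose libraries 20825177 to 27928097. In the control pancreas 55.2% and 56.6% of all counts fell on 15 acinar marker genes, and in the OA-AP pancreas 45.2% to 47.2%, which shows the labelled tissue and a difference in composition between the groups. In adipose tissue the same list took at most 0.00166% of the counts in 5 libraries and 0.713% in control replicate 2. The 6 adipocyte markers summed to 25620 to 26113 CPM in control and 28277 to 29430 CPM in OA-AP adipose tissue. Levels are given below as counts per 1000000 counts (CPM) on libraries scaled with TMM factors, which assume that most genes do not change, unless another scale is named.

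The 46 member rows took 0.147% and 0.153% of the pancreas counts in the control group and 0.144% to 0.160% in the OA-AP group. In adipose tissue the 45 rows took 0.671% to 0.775% in the control group and 0.582% to 0.672% in the OA-AP group. Per kilobase of the deposited gene length (RPKM), the members with the highest mean levels in the control pancreas were Cox6a1 at 115, Cox8a at 89.5, Cox4i1 at 78.3 and Atp5b at 64.6. In control adipose tissue Cox8a was at 693, Cox6a1 at 354 and Atp5b, the catalytic beta subunit, at 323. The order depends on the length used: per kilobase of the principal transcript Cox4i1 came first in the control pancreas, at 159, with Atp5b at 143 and Cox6a1 at 141, and Atp5b came first in control adipose tissue, at 714, with Cox8a at 687.

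After a filter on low counts 37 of the 46 members could be tested in the pancreas. In the OA-AP group 24 of them were downregulated and 0 upregulated, at a fold of 1.5 or more and an adjusted p below 0.05 in edgeR's quasi-likelihood test, where 13.5% of the 12884 genes tested were called lower and 16.2% higher. The calls covered 6 of 9 members of complex III, 8 of 11 of complex IV and 10 of 17 of ATP synthase. Tested members had a median log2 fold change of -0.81, beside 0.04 for all genes tested. At the adjusted p-value alone 33 members were lower and 0 higher, against 15.2% and 17.8% of all genes tested. All OA-AP libraries lay below both control libraries for 36 of the 37 members, as they did for 29.3% of all genes tested, and above them for 0 members, as they did for 33% of all genes. At an unadjusted p under 0.05, 35 members were lower and 0 higher, and DESeq2 called 25 lower and 0 higher. The exception to the direction was Cox7a2l, described below. Islet markers summed to 973 to 1194 CPM in the control and 1348 to 1636 CPM in the OA-AP pancreas, with 2 of 6 called higher (Iapp and Chga) and 0 lower. Of the 15 acinar markers 9 were called lower and 1 higher. Immune markers summed to 18.6 to 41.0 CPM in the control and 32.1 to 102 CPM in the OA-AP pancreas. Adipocyte markers summed to 23.9 to 37.7 CPM and 37.0 to 70.3 CPM, and no immune or adipocyte marker was called. The part of these markers in the members' change was not tested. In bulk tissue, fewer cells of a type and less RNA per cell cannot be told apart.

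The size of this fall rests on the scaling between libraries. The acinar genes took fewer counts in OA-AP, most other genes filled a larger share of the library, and the TMM factors were 0.79 and 0.70 in the control group against 1.11 to 1.32 in the OA-AP group. With library totals alone the median log2 fold change of all genes tested was 0.75 and that of the members -0.11, with 15 of the 36 negative values turned positive, 7 members called lower (Cox7b, Atp5g1, Atp5j2, Atp5k, Atp5j, Uqcr11 and Cox7a2) and 1 called higher (Cox7a2l), where 3.93% of all genes were called lower and 45.3% higher. The members thus kept a nearly constant share of pancreatic counts while most other genes rose in share. Computing the TMM factors without the 15 acinar genes left 24 members called lower and 0 higher. This drops 15 of the 12884 genes and keeps the library totals, so it cannot show how far the fall rests on the acinar counts.

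**Figure D1:**
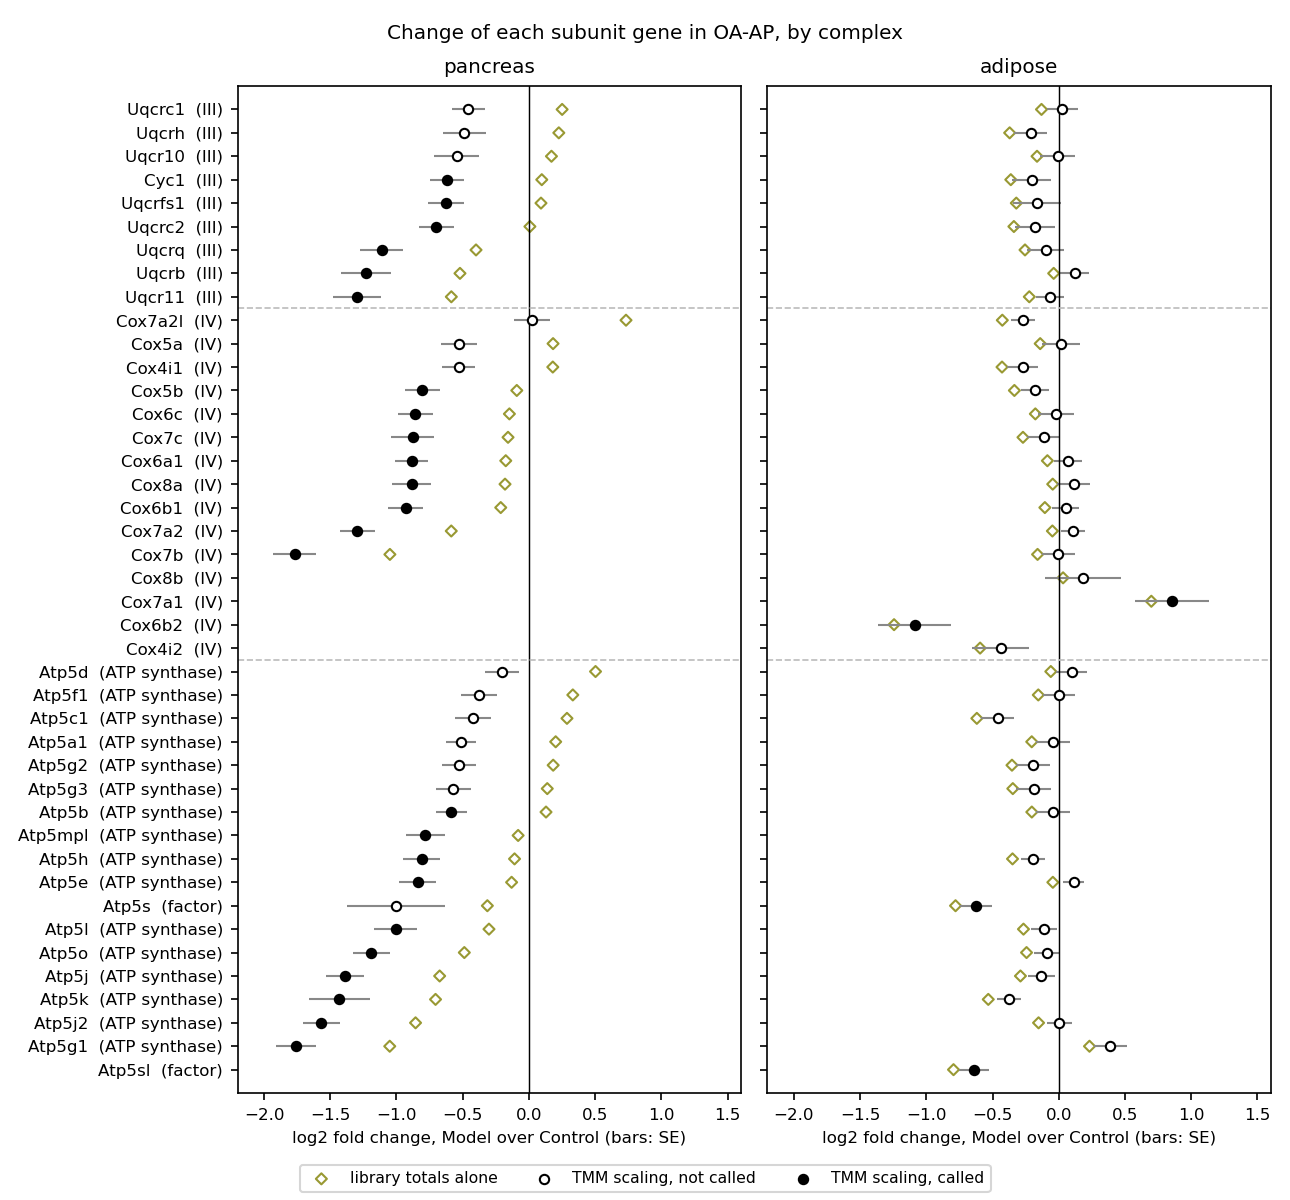
Log2 fold change of each tested member, OA-AP (Model) over Control, in pancreas and adipose tissue, with circles for TMM scaling (filled where called, bars show the SE) and open diamonds for library totals alone; dashed lines separate complex III, complex IV and ATP synthase. In the pancreas 36 of 37 circles lie below 0 and the diamonds sit to their right on either side of 0. In adipose tissue the circles sit near 0 for most genes. The diamonds there lie to their left, below 0 for 38 of the 41 members.

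In complex III of the pancreas the largest falls were those of 3 small accessory subunits, Uqcr11, Uqcrb and Uqcrq. Uqcr11 stood at 29.1 and 37.5 CPM in the control libraries and at 12.7, 11.9 and 16.1 CPM in the OA-AP libraries, a log2 fold change of -1.30 (SE 0.18, adjusted p = 0.0016 in edgeR's quasi-likelihood test). Uqcrb, a subunit that binds cytochrome b, stood at 15.0 and 18.6 CPM against 6.08, 7.26 and 8.15 CPM, a log2 fold change of -1.23 (SE 0.19, edgeR adjusted p = 0.0024). Both genes were thus at less than their lowest control level in each OA-AP library. Uqcrq fell as well (-1.11). The other called members were core and catalytic subunits, with log2 fold changes of -0.70 for Uqcrc2, -0.63 for the Rieske iron-sulfur protein Uqcrfs1 and -0.62 for cytochrome c1 (Cyc1), values that turned slightly positive for all 3 with library totals alone. Uqcrfs1 and Cyc1 fell short of the fold threshold without the low-count filter (-0.55 and -0.54).

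For 3 members of complex III the fold change stayed under 1.5. The core protein Uqcrc1 had 53.8 and 52.8 CPM in the control group and 36.8, 39.998 and 39.7 CPM in the OA-AP group (log2 fold change -0.46, SE 0.12, edgeR adjusted p = 0.023). The hinge protein gene Uqcrh had 46.6 and 60.0 CPM against 33.2, 39.3 and 41.5 CPM, and Uqcr10 had 16.2 and 21.01 CPM against 11.4, 13.9 and 12.8 CPM. Their groups did not overlap either, and both log2 fold changes, -0.49 and -0.55, passed the adjusted p-value but not the fold threshold.

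In complex IV Cox7b, a subunit needed to assemble the complex, fell most. Its levels were 45.6 and 52.9 CPM in the control libraries and 13.4, 17.03 and 12.95 CPM in the OA-AP libraries, a log2 fold change of -1.77 (SE 0.16, edgeR adjusted p = 0.00029) or a 3.41-fold lower level. Cox7a2, the common form of subunit VIIa, stood at 25.9 and 26.2 CPM against 10.5, 10.8 and 10.5 CPM (log2 fold change -1.30, SE 0.13, edgeR adjusted p = 0.00043). The other called subunits of complex IV lay close together, between -0.93 (Cox6b1) and -0.81 (Cox5b), with Cox8a at -0.89, Cox6a1 at -0.88, Cox7c at -0.88 and Cox6c at -0.86.

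Cox4i1 and Cox5a, which encode regulatory subunits around the catalytic core, were lower at the adjusted p-value but under the fold threshold. Cox4i1 had 118 and 125 CPM in the control group and 82.4, 79.8 and 90.3 CPM in the OA-AP group (log2 fold change -0.53, SE 0.12, edgeR adjusted p = 0.014). Cox5a had 20.7 and 21.2 CPM against 14.8, 13.7 and 15.2 CPM, also -0.53. Cox7a2l encodes a protein described as joining complexes III and IV into supercomplexes, and not a subunit of the isolated enzyme. Whether it has this role in these mice was not examined. Cox7a2l stood apart with 63.1 and 69.3 CPM against 60.8, 68.3 and 72.9 CPM. Its log2 fold change was 0.03 (SE 0.14, edgeR adjusted p = 0.90), and it was the only tested member whose groups overlapped. With library totals in place of TMM it was called higher in OA-AP, at a log2 fold change of 0.73 (edgeR adjusted p = 0.0018).

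In ATP synthase 10 of the 17 tested members were called. Of these, 7 belonged to the membrane part without the c ring or to the peripheral stalk, the rod that holds the catalytic head still. Every tested gene of these parts except Atp5f1 was called, and so was Atp5g1 of the c ring. Atp5j2, which encodes membrane subunit f, stood at 44.6 and 50.5 CPM in the control group and at 14.6, 16.6 and 17.03 CPM in the OA-AP group (log2 fold change -1.57, SE 0.14, edgeR adjusted p = 0.00026). The other membrane genes fell by 1.43 (Atp5k, subunit e), 1.01 (Atp5l, subunit g) and 0.78 (Atp5mpl) on the log2 scale. In the peripheral stalk Atp5j (subunit F6) fell by 1.39, Atp5o (the oligomycin sensitivity protein) by 1.19 and Atp5h (subunit d) by 0.81 on the log2 scale, and Atp5f1 (subunit b) was at 51.8 and 59.7 CPM against 40.2, 41.9 and 46.4 CPM without passing the test (edgeR adjusted p = 0.062).

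In the catalytic head Atp5b stood at 273 and 274 CPM against 192, 178 and 178 CPM (log2 fold change -0.59, but 0.13 with library totals alone), just past the fold threshold, and Atp5a1, the alpha subunit, at 161 and 168 CPM against 118, 115 and 113 CPM (log2 fold change -0.51), just short of it. Atp5b fell short of the fold threshold without the low-count filter (-0.51) and with at least 10 counts in every sample (-0.58). It also did so with the replicate block and without OA-AP replicate 2 (-0.57 for each). Of the central stalk, Atp5e (epsilon) was called, and fell by 0.84 on the log2 scale. Atp5c1 (gamma) had 56.3 and 64.9 CPM against 42.8, 43.3 and 49.5 CPM, and Atp5d (delta) 60.1 and 63.8 CPM against 53.1, 49.9 and 58.1 CPM, with a log2 fold change of -0.21 for Atp5d (SE 0.13, edgeR adjusted p = 0.25). Atp5s, the accessory factor, was low, at 2.74 and 1.99 CPM against 1.21, 0.97 and 1.36 CPM, and was not called (edgeR adjusted p = 0.071).

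Summed over its members, complex III was at 362 and 417 CPM in the control pancreas and at 223, 228 and 245 CPM in the OA-AP pancreas. Complex IV was at 540 and 598 CPM against 333, 340 and 365 CPM, and ATP synthase at 1031 and 1085 CPM against 659, 655 and 685 CPM. The groups did not overlap for any of the 3 sums, with log2 ratios of the means of -0.75, -0.72 and -0.67. As CPM of library totals all 3 sums overlapped between the groups, with log2 ratios of -0.03 for complex III, 0.00 for complex IV and 0.04 for ATP synthase.

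**Figure D2:**
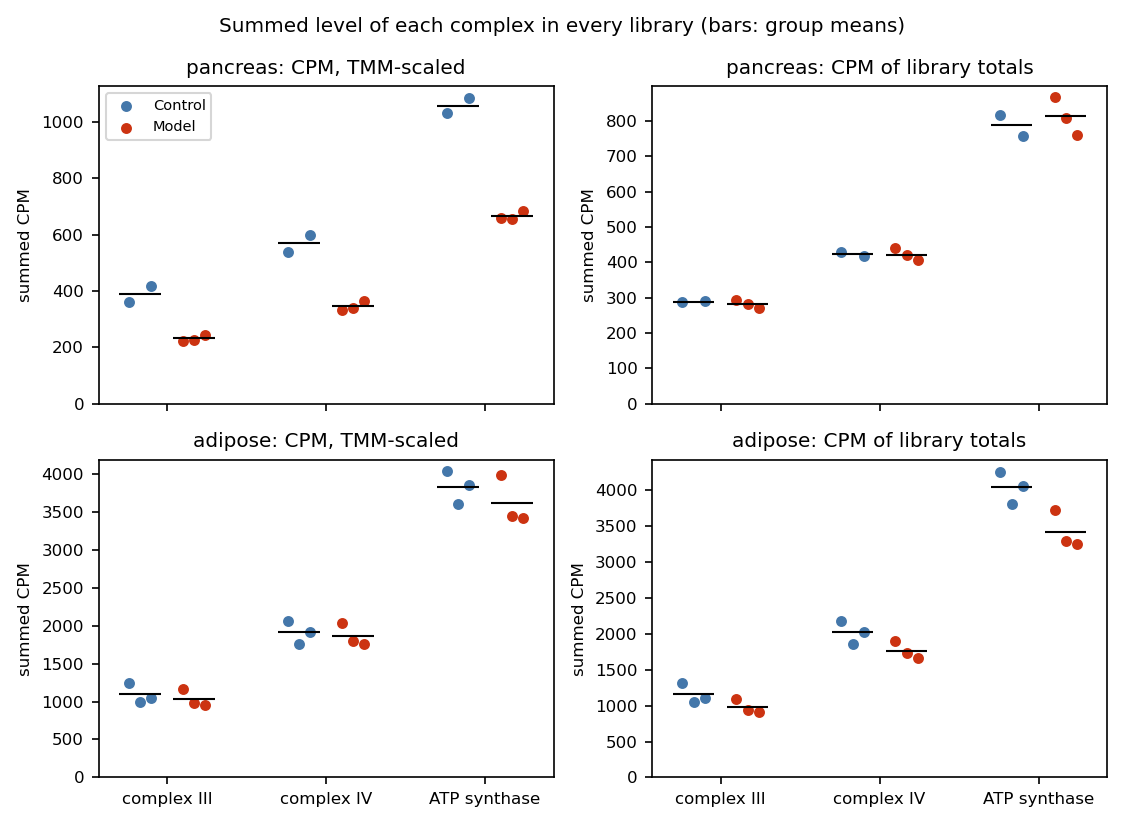
Summed CPM of the members of complex III, complex IV and ATP synthase in every library, for pancreas (top) and adipose tissue (bottom), scaled with TMM (left) or by library totals alone (right), with points for libraries and bars for group means. The OA-AP pancreas libraries lie below the control libraries on the left, where ATP synthase is at 655 to 685 CPM against 1031 to 1085 CPM, and beside them on the right.

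The differences among the members do not depend on the factor used to scale a library. With libraries scaled to the geometric mean of the tested members, 3 pancreas members were called lower than the rest (Cox7b, Atp5g1 and Atp5j2) and 2 higher (Cox7a2l and Atp5d), where 3.3% of all genes were called lower and 52.8% higher on that scale. Cox7b lay 0.19 and 0.28 above the members' mean on the log2 scale in the control libraries and at -0.74, -0.43 and -0.91 in the OA-AP libraries (difference -0.92, SE 0.17, edgeR adjusted p = 0.0017). Atp5g1 went from -0.14 and -0.06 to -1.15, -0.94 and -0.95 (difference -0.91, SE 0.14, edgeR adjusted p = 0.00081). Both genes thus started close to the average member and ended well below it.

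Atp5j2 went from 0.16 and 0.21 to -0.62, -0.47 and -0.52 on the same scale, a difference of -0.72 (edgeR adjusted p = 0.0019). In the other direction Cox7a2l went from 0.66 and 0.67 to 1.44, 1.57 and 1.58, a difference of 0.87 (edgeR adjusted p = 0.00049), and Atp5d from 0.59 and 0.55 to 1.25, 1.12 and 1.25, a difference of 0.64 (edgeR adjusted p = 0.0024). Atp5d was therefore called on this scale and not on the TMM scale. In adipose tissue 1 member was called lower on this scale, Cox6b2, and 0 higher, where 9.56% and 15.2% of all genes were.

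**Figure D3:**
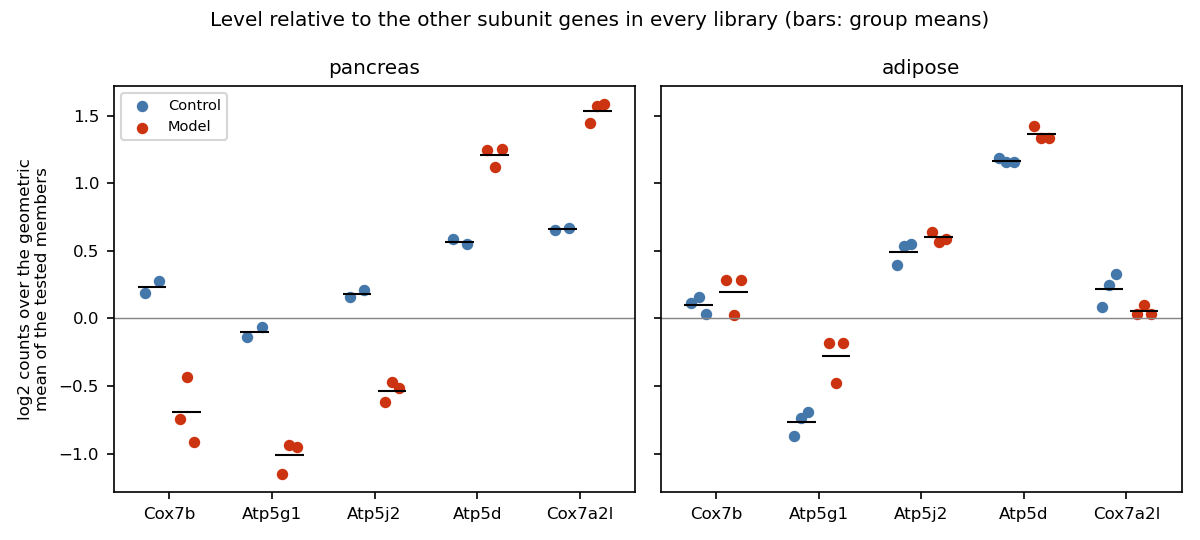
Log2 counts of Cox7b, Atp5g1, Atp5j2, Atp5d and Cox7a2l over the geometric mean of the members tested in that tissue, with points for libraries and bars for group means. In the pancreas each gene's 3 OA-AP libraries are clear of its 2 control libraries, Cox7a2l at 1.44 to 1.58 against 0.66 to 0.67, and in adipose tissue Atp5g1 moves the opposite way.

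The c ring of ATP synthase is built from a single mature protein that 3 genes encode, Atp5g1, Atp5g2 and Atp5g3, which differ in the targeting peptide that is cut off on import. In the pancreas Atp5g1 fell from 36.4 and 41.8 CPM to 10.1, 12.0 and 12.6 CPM, a log2 fold change of -1.76 (SE 0.15, edgeR adjusted p = 0.00024). Atp5g2 went from 50.5 and 57.4 CPM to 34.9, 37.5 and 39.7 CPM (log2 fold change -0.53) and Atp5g3 from 65.4 and 72.3 CPM to 42.5, 46.3 and 50.3 CPM (-0.57), both under the fold threshold. In adipose tissue Atp5g1 was higher in OA-AP, at 73.8, 54.4 and 65.7 CPM against 49.4, 46.7 and 51.9 CPM (log2 fold change 0.39, SE 0.12, edgeR adjusted p = 0.041), past the adjusted p-value and under the fold threshold. With library totals alone its log2 fold change in adipose tissue was 0.23 and did not pass (edgeR adjusted p = 0.15).

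As a share of the summed per-length level of the 3 genes, which no scaling between libraries touches, Atp5g1 made up 10.98% and 11.2% in the control pancreas and 4.84%, 5.30% and 5.19% in the OA-AP pancreas. In adipose tissue its share was 6.93%, 7.60% and 7.66% in the control group and 10.6%, 9.81% and 11.5% in the OA-AP group. The groups did not overlap in either tissue and moved in opposite directions. Each difference had an exact two-sided permutation p of 0.1, the smallest these group sizes allow, and the size of the share depends on the gene lengths used. The difference between the tissues in the change of Atp5g1 was -2.13 on the log2 scale (SE 0.20, edgeR adjusted p = 5.28e-05).

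The start-site regions of the c-ring genes are shown because the 3 genes encode the same mature protein and differed in their change. Each holds 250 bases before and 50 after the RefSeq start site, in the direction of the gene, on GRCm38.p6, with capitals for a match to the NRF1 motif GCGCANGCG or the ERR motif TCAAGGTCA on either strand. Atp5g1 lies on the minus strand at chr11:96075582-96075881, Atp5g2 on the minus strand at chr15:102670998-102671297 and Atp5g3 on the minus strand at chr2:73911277-73911576.
Atp5g1: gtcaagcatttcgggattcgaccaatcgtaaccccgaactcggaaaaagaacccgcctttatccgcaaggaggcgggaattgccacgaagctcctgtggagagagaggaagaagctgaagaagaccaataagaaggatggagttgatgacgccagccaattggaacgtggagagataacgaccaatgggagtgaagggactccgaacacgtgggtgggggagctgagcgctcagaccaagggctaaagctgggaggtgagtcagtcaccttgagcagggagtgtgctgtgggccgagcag
Atp5g2: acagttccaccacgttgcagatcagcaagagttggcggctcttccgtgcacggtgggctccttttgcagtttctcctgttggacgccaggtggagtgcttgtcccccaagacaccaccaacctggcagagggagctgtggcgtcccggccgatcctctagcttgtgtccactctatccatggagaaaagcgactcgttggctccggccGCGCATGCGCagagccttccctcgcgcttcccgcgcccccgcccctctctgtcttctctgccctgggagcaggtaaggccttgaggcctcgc
Atp5g3: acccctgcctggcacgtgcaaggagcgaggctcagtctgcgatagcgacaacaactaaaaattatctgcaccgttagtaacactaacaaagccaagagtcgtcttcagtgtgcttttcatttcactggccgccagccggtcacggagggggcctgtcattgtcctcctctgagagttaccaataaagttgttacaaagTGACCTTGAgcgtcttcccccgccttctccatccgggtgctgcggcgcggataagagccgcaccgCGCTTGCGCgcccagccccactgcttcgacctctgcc
Atp5g2 held 2 matches to the NRF1 motif that overlap on opposite strands, Atp5g3 held 1 to the NRF1 and 1 to the ERR motif, and Atp5g1 had no match to either of these or to the GABPA motif CCGGAAGT or the YY1 motif AANATGGCG in this window.

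The corresponding regions of the pancreas members at the ends of the range are shown for comparison, Cox7b on the plus strand at chrX:106015450-106015749 and Cox7a2l on the minus strand at chr17:83514284-83514583. Neither had a match to any of the 4 motifs.
Cox7b: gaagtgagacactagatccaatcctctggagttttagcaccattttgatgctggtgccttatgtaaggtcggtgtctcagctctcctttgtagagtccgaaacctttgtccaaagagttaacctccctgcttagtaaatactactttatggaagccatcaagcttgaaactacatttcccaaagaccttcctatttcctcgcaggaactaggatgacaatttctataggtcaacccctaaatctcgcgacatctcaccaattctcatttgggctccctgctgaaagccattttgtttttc
Cox7a2l: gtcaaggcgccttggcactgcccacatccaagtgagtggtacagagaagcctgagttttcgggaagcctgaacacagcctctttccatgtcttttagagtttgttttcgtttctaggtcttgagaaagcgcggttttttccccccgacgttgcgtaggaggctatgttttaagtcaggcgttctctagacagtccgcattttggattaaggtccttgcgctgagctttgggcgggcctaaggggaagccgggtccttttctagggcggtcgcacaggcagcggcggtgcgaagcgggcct
Of the 46 member symbols 34 had a start-site region in the RefSeq table. The NRF1 motif matched in 10 of the 34 (29.4%) and in 7.03% of all 27025 genes with a region, the GABPA motif in 4 of the 34 (4.31% of all genes), the YY1 motif in 4 (2.76% of all genes) and the ERR motif in 1 (0.47% of all genes). No region was available for Uqcrc2, Cyc1, Uqcrb, Uqcrq, Cox4i1, Cox4i2, Cox6a2, Cox6c, Cox6c2, Cox8c, Atp5a1 and Atp5mpl.

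The isoforms of complex IV that are made mainly in certain tissues were minor in both organs. In the pancreas Cox4i2, Cox6a2, Cox6b2, Cox7a1, Cox8b and the pseudogene Cox6c2 had at most 7 counts in any library and did not pass the filter, and Cox7b2 and Cox8c, forms described in testis, had 0 counts in all 11 libraries. A count of 0 allows up to 3 counts in a library, for counting error only. In adipose tissue Cox4i2, the form of subunit IV linked to lung and to low oxygen, made up 1.40% to 2.25% of the per-length level of Cox4i1 and Cox4i2, beside 0.13% to 0.85% in the pancreas (exact two-sided permutation test, p = 0.0022, adjusted over the 6 shares compared p = 0.0065). With principal transcript lengths the shares of Cox4i2 were 0.75% to 1.21% and 0.066% to 0.45%, with the same exact permutation p of 0.0022.

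Cox8b, a heart and muscle form, made up 1.33% to 2.66% of subunit VIII in adipose tissue and 0.00% to 0.66% in the pancreas (exact permutation p = 0.0022, adjusted p = 0.0065). Cox7a1, another muscle form, made up 1.58% to 4.06% of subunit VIIa in adipose tissue and was at 0 in 4 of 5 pancreas libraries, with 1.73% in the remaining library from 2 counts (exact permutation p = 0.0065, adjusted p = 0.013). The shares of Cox6a2 and Cox6b2 overlapped between the tissues, with adjusted p = 0.38 and 0.13 in the same exact permutation test. The pancreas shares rest on a few counts each.

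**Figure D4:**
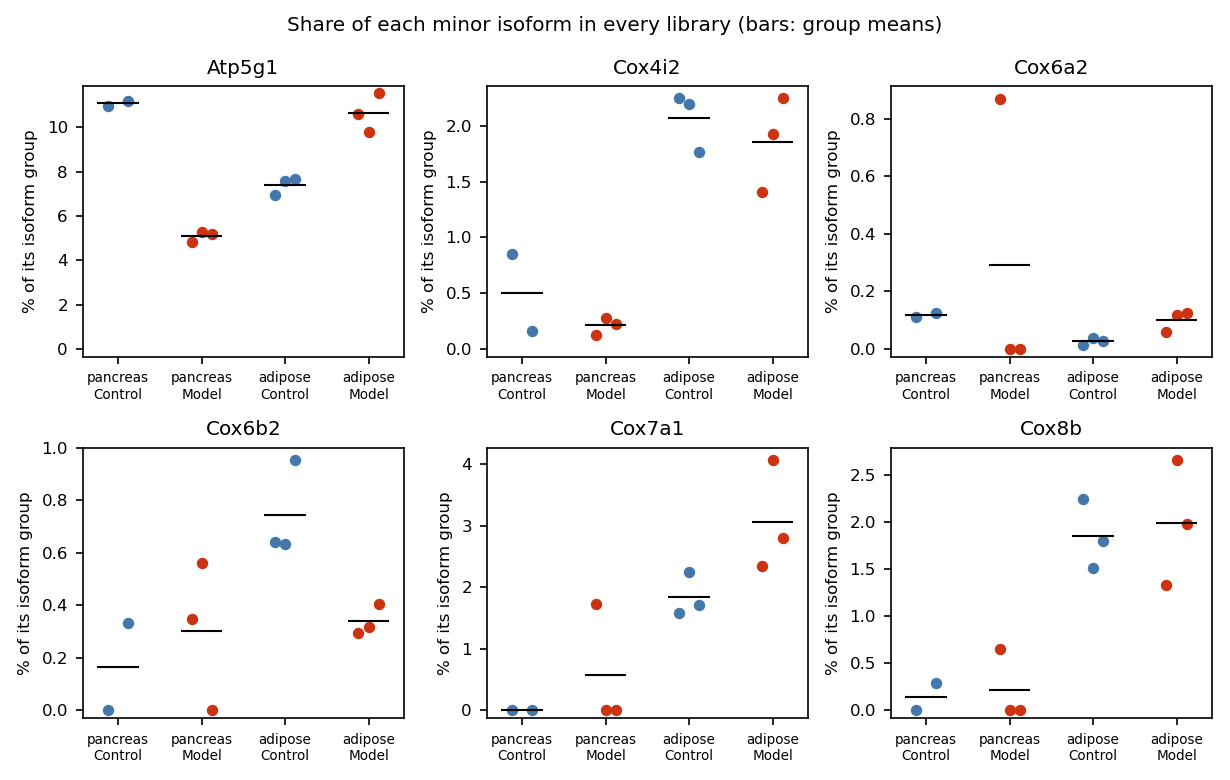
Share of Atp5g1 among the c-ring genes and of the tissue forms Cox4i2, Cox6a2, Cox6b2, Cox7a1 and Cox8b within their subunit, per length and in percent, in every library of pancreas and adipose tissue, with bars for group means. Atp5g1 drops from 10.98% and 11.2% to 4.84% to 5.30% in the pancreas and rises to 9.81% to 11.5% in adipose tissue, and Cox4i2 and Cox8b have higher shares in all adipose libraries than in any pancreas library.

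In adipose tissue 41 of the 45 members could be tested, and 37 of them were not called. At both thresholds 3 were downregulated and 1 was upregulated in OA-AP, where 12.7% of the 15839 genes tested were called lower and 12.4% higher by the same edgeR test. At the adjusted p-value alone 5 were lower and 2 higher, where 16.9% of all genes were lower and 20% higher. The OA-AP libraries lay wholly below the control libraries for 8 of the 41 members and wholly above for 3, as they did for 25.3% and 27.5% of all genes, and overlapped for 30. Immune markers summed to 529 to 648 CPM in the control and 731 to 996 CPM in the OA-AP adipose libraries, with 4 of 9 called higher and 2 lower, and their part in the members' levels was not tested. The members' median log2 fold change was -0.09, beside 0.00 for all genes tested. With library totals alone these medians were -0.24 and -0.16, and 38 members had a negative and 3 a positive value. With TMM scaling none of the 9 tested members of complex III was called. Their log2 fold changes ran from -0.21 (Uqcrh) to 0.12 (Uqcrb), with the groups overlapping for all 9. At an unadjusted p under 0.05 in edgeR, 0 members of complex III were lower and 0 higher.

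Cox6b2, the testis form of subunit VIb, fell from 1.91, 1.59 and 2.58 CPM in the control group to 0.87, 0.88 and 1.11 CPM in the OA-AP group (log2 fold change -1.09, SE 0.27, edgeR adjusted p = 0.020). The adjusted p rose to 0.050, 0.070 and 0.056 without control replicate 1, control replicate 3 or OA-AP replicate 1. Markers of sperm and epididymis, which lie against this fat pad, were at or near 0 and summed to at most 0.051 CPM in any adipose library. The common form Cox6b1 was at 189, 160 and 171 CPM against 190, 175 and 174 CPM. Cox6b2 thus made up 0.63% to 0.95% of subunit VIb in the control group and 0.29% to 0.40% in the OA-AP group, without overlap (exact permutation p = 0.1, the smallest possible).

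Cox7a1 was the only member called higher, at 1.34, 2.05 and 1.36 CPM in OA-AP against 0.77, 1.05 and 0.81 CPM (log2 fold change 0.85, SE 0.28, edgeR adjusted p = 0.049). This call was lost whenever any library was left out. Of 6 skeletal muscle markers, which summed to 7.84 to 33.5 CPM in the control and 24.5 to 155 CPM in the OA-AP adipose libraries, 1 was called lower and 0 higher. The sum was mostly Acta1 (17.3 ± 12.997 against 82.9 ± 65.6 CPM, SD, n = 3 each, not called), while Mylpf fell from 1.10 to 0.35 CPM, Tnnt3 was at 0.59 and 0.37 CPM, and Ckm and Myh4 were at or near 0. Their part in the level of Cox7a1 was not tested. Its common partner Cox7a2 was at 84.7, 80.5 and 82.4 CPM against 98.4, 85.3 and 83.5 CPM. The muscle form Cox6a2 was below the filter, at 0.037, 0.084 and 0.068 CPM against 0.15, 0.29 and 0.30 CPM.

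The other tissue forms were not called in adipose tissue. Cox4i2 was at 4.21, 3.40 and 3.26 CPM in the control and 2.16, 2.78 and 3.07 CPM in the OA-AP group (log2 fold change -0.44, SE 0.22, edgeR adjusted p = 0.15), and Cox8b was at 6.19, 3.61 and 4.45 CPM against 4.06, 7.21 and 4.94 CPM. Their common partners Cox4i1 and Cox8a had log2 fold changes of -0.27 and 0.11. Of 5 brown adipocyte markers, which summed to 12.5 to 15.2 CPM in the control and 3.66 to 4.63 CPM in the OA-AP group, only Ppargc1a was called (lower, 11.4 against 2.65 CPM). Cidea was at 1.89 and 1.16 CPM and not called, and Ucp1 and Elovl3, defining markers, were below 0.1 CPM on average in both groups.

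Among the Atp5 genes of adipose tissue the 2 called were those of the accessory factors. Atp5sl fell from 21.7, 20.4 and 23.1 CPM to 14.8, 14.8 and 12.3 CPM (log2 fold change -0.64, SE 0.12, edgeR adjusted p = 0.0062) and Atp5s from 10.3, 10.2 and 10.7 CPM to 6.99, 6.97 and 6.30 CPM (log2 fold change -0.62, SE 0.12, edgeR adjusted p = 0.0082). Both fell short of the fold threshold without OA-AP replicate 3 (-0.56 and -0.58). No gene of an ATP synthase subunit was called by edgeR with TMM scaling or by DESeq2. At the adjusted p-value alone Atp5c1, the gamma subunit, was also lower, at 316, 288 and 324 CPM against 256, 219 and 199 CPM (log2 fold change -0.46, and -0.62 and called with library totals alone), and so was Atp5k, at 36.1, 33.4 and 39.5 CPM against 28.5, 26.8 and 28.7 CPM (log2 fold change -0.38). Atp5g2 was at 74.7, 71.2 and 88.5 CPM against 78.2, 60.0 and 66.4 CPM and Atp5g3 at 197, 159 and 163 CPM against 174, 144 and 137 CPM, with overlapping groups.

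Summed over its members, complex III of adipose tissue was at 995 to 1247 CPM in the control and 958 to 1166 CPM in the OA-AP group. Complex IV was at 1755 to 2060 CPM against 1759 to 2038 CPM, and ATP synthase at 3601 to 4032 CPM against 3417 to 3986 CPM. The groups overlapped for all 3 sums, with log2 ratios of -0.08, -0.03 and -0.08. The ratios were -0.24, -0.19 and -0.24 with library totals alone, and the sums of ATP synthase did not overlap.

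Whether the change differed between the tissues was tested on the 40 members that passed the filter in a joint fit. Cox4i2, Cox6b2, Cox7a1 and Cox8b are among the 40 although they did not pass the filter in the pancreas alone. Their differences rest on few pancreas counts, and none was called. The change was lower in the pancreas for 19 of the 40 members and higher for 0 at an adjusted p-value under 0.05 in edgeR, where 10.8% of the 17046 genes tested were lower and 10.5% higher. The 19 comprised 3 members of complex III, 8 of complex IV and 8 of ATP synthase. Besides Atp5g1 the largest differences were those of Cox7b (-1.74, SE 0.20, edgeR adjusted p = 0.00019), Atp5j2 (-1.55) and Cox7a2 (-1.38) on the log2 scale. At an unadjusted p under 0.05 in edgeR 25 were lower and 0 higher, and DESeq2 gave 22 lower and 0 higher. Scaled by library totals alone, the change was lower in the pancreas for 5 members and higher for 7, where 2.31% of all genes were lower and 36.8% higher.

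Other genes of the pathway were counted in the same fits. Of all genes tested in the pancreas 13.5% were called lower and 16.2% higher with TMM scaling, against 3.93% and 45.3% with library totals alone. In adipose tissue 12.7% of all genes were called lower and 12.4% higher with TMM scaling. In the pancreas 31 of 36 nuclear subunits of complex I were downregulated and 0 upregulated with TMM scaling (median log2 fold change -0.96), against 3 lower and 1 higher with library totals alone (median -0.24). In adipose tissue edgeR and DESeq2 called 0 of 36, with 7 lower and 0 higher at an unadjusted p under 0.05. Ndufa13 (-1.72), Ndufv3 (-1.79) and Ndufs8 (-1.80) had the smallest p-values among them and were also lower with library totals alone. Of complex II, Sdhb (-0.995) and Sdhc (-0.76) were lower in the pancreas and neither was called with library totals alone. In adipose tissue 0 of 4 genes of complex II were called by edgeR or DESeq2, with 2 lower and 0 higher at an unadjusted p under 0.05. Cytochrome c (Cycs), the carrier between complexes III and IV, was at 11.6 ± 3.0 CPM (SD, n = 2) in the control and 12.8 ± 1.3 CPM (SD, n = 3) in the OA-AP pancreas (edgeR adjusted p = 0.63), and was called higher with library totals alone (log2 fold change 0.86).

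The subunits of these complexes that the mitochondrial genome encodes were not called in either tissue by edgeR with TMM scaling, with 2 lower and 0 higher at an unadjusted p under 0.05 in the pancreas and 0 in adipose tissue. DESeq2 called 1 lower in the pancreas, and with library totals alone mt-Co2 was called higher there. In the pancreas mt-Co1, the catalytic subunit of complex IV, had a log2 fold change of -0.43 (SE 0.17, edgeR adjusted p = 0.086) and mt-Cytb, of complex III, one of -0.56 (SE 0.17, edgeR adjusted p = 0.037, under the fold threshold). In adipose tissue they were at 0.20 and 0.34 and did not pass the test. The counts of mt-Co2, mt-Co3, mt-Atp6 and mt-Atp8 were far below those of mt-Co1, at 0.26 to 10.4 CPM against 4118 CPM on average in the control pancreas. How reads that match the mitochondrial genome and nuclear copies of it were counted is not given in the sources used here.

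Assembly factors were counted as well. In the pancreas 3 of 5 tested factors for complex III were lower (Uqcc2 -1.48, Uqcc3 -0.65, Bcs1l -1.10), 7 of 19 for complex IV, among them the haem A synthase Cox15 (-1.48), Coa3 (-0.90) and Cmc2 (-2.36), and 1 of 5 for ATP synthase (Fmc1 -1.51), with 0 higher in any of these lists, where 13.5% of all genes were called lower and 16.2% higher. Ndufa4, an accessory subunit of complex IV outside the symbol rule, fell by 0.97 on the log2 scale. With library totals alone the counts for the pancreas were 1 lower and 0 higher for complex III, 2 lower (Cox15 and Cmc2) and 3 higher (Cox14, Sco1 and Cox10) for complex IV, and 0 lower and 1 higher (Tmem70) for ATP synthase, where 3.93% of all genes were called lower and 45.3% higher. In adipose tissue 1 of 20 tested factors for complex IV was higher (Cox18, 0.62), where 12.4% of all genes were, and Ndufa4l2, a relative of Ndufa4, was lower (-0.60). With library totals alone Cox18 was not called there (0.46) and Ndufa4l2 was still called lower (-0.76).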

How the data were processed

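RNA sequencing counts of 11 libraries were used, 5 from pancreas and 6 from epididymal adipose tissue. The authors trimmed the reads with Trim Galore 0.6.6 and fastp 0.20.1, mapped them with STAR to GRCm38, counted them on genes with featureCounts 2.0.1 and deposited whole-number counts per gene without normalization. The annotation release, the strand setting and the treatment of multiply mapping reads are not given in the sources used here, so genes with processed pseudogenes or overlapping neighbours are uncertain to that extent. Deposited gene lengths from the pancreas table entered only the per-length levels.

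Genes were filtered with filterByExpr, libraries scaled with TMM, and each tissue tested with edgeR 4.0.16 (quasi-likelihood, robust) in R 4.3.3. Members were called at a Benjamini-Hochberg adjusted p-value under 0.05 over all genes tested and a fold of 1.5 or more, the tissue difference without the fold. A tissue by condition term gave the difference between tissues. Standard errors were taken from the fold change and its F statistic (log2 change over root F). Isoform shares were compared with exact permutation tests over libraries. Start-site sequences came from RefSeq. Replicates are separate samples on their labels, and nothing says more, so p-values measure the spread between these samples, which may be technical. Counts differed between replicates by more than sampling noise (chi-square over its degrees of freedom at least 6.91).

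The members and lists were chosen with earlier results of these data known. Members given with values in every sample were, per tissue and complex, the 2 called with the largest fall and the 2 with the largest rise, the isoform families, members called in opposite directions, and tested pancreas members not called. From each pathway list at most 3 called genes with the smallest p were named, and further genes were named after their values were seen. Alternatives were library totals alone, DESeq2 1.42.0, its size factors in edgeR, TMM factors without acinar genes, other filters, no fold threshold, each library left out and a replicate block. Scaling to the members, principal transcript lengths for levels and shares, the sums without Atp5s and Atp5sl and the mitochondrial ratio were added after seeing the data. In simulated counts 200 genes above a low level were changed by the same amount, equally often up and down, with a common dispersion. That amount was larger than the members' median change in the pancreas (-0.81 on the log2 scale), and no shift in composition was simulated. With these settings edgeR found 178 among 12728 genes in the pancreas with 7 false calls, 200 among 15592 in adipose tissue with 8, and 90 of 200 tissue differences among 16607 genes with 4. These counts thus do not give the power or the error rate for the members.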

Additional observations from a re-analysis of the deposited data

Results flagged for a closer look

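The change in OA-AP differed between pancreas and adipose tissue for 19 members in the tissue by condition test of edgeR with TMM scaling, and in all 19 it was lower in the pancreas. Differences are on the log2 scale, pancreas change minus adipose change. In complex III they were -1.32 for Uqcrb, -1.21 for Uqcr11 and -0.99 for Uqcrq, all small accessory subunits. In complex IV they were -1.74 for Cox7b, -1.38 for Cox7a2, -0.98 for Cox8a, -0.96 for Cox6b1, -0.93 for Cox6a1, -0.82 for Cox6c, -0.74 for Cox7c and -0.61 for Cox5b, so that the common form of each of these subunits was included. In ATP synthase they were -2.13 for Atp5g1, -1.55 for Atp5j2, -1.24 for Atp5j, -1.08 for Atp5o, -1.03 for Atp5k, -0.93 for Atp5e, -0.88 for Atp5l and -0.60 for Atp5h. With library totals alone the difference turned positive for Cox5b, Cox6c, Cox7c and Atp5h among these 19, and for 16 further members with a negative difference. Cox8b, which did not pass the filter in the pancreas, is among the 16. Leaving out adipose control replicate 2 or 3 or adipose OA-AP replicate 1 removed the calls of Cox5b and Cox7c. That of Cox7c was also lost without pancreas OA-AP replicate 1 and with the replicate block. The call of Atp5h was lost without adipose control replicate 2, adipose OA-AP replicate 1 or pancreas OA-AP replicate 1. Acinar markers fell in share in the pancreas over the same comparison, from 55.2% and 56.6% to 45.2% to 47.2% of the counts, and their part in these differences was not tested.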

How the results depend on the processing

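Library totals alone changed most. In the pancreas 7 members were then called lower and 1 higher, in adipose tissue 4 lower and 0 higher, where 17.9% of all genes were lower and 8.74% higher, and the tissue difference gave 5 lower and 7 higher. Of the 36 negative log2 fold changes in the pancreas 15 turned positive, among the called members those of Uqcrc2 (0.0078), Cyc1 (0.10), Uqcrfs1 (0.091) and Atp5b (0.13), and 11 of members that were not called (0.14 to 0.50). Of 36 negative tissue differences 20 turned positive, among the called ones those of Cox5b (0.24), Cox6c (0.030), Cox7c (0.11) and Atp5h (0.24). The 36 include Cox4i2 and Cox8b, which did not pass the filter in the pancreas. The log2 ratios of the sums as shares of counts were -0.035 (complex III), -0.00467 (complex IV) and 0.044 (ATP synthase) in the pancreas, and -0.19 (complex IV) and -0.24 (ATP synthase) in adipose tissue. As mean log2 CPM over tested members they were -0.85 for complex IV and -0.88 for ATP synthase in the pancreas. Without the fold threshold adipose tissue gave 5 lower and 2 higher, and the call higher was 0 with DESeq2 and without the low-count filter. The share of Atp5g1 changed by -12.1 percentage points in the pancreas and 6.25 in adipose tissue on raw counts, and by -2.60 and 1.39 with principal transcript lengths, against -5.99 and 3.26 as reported. That of Cox6b2 in adipose tissue changed by -0.63 on raw counts and -0.66 with principal transcript lengths.

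With the replicate number as a block 24 pancreas members were called lower, 3 adipose members lower and 0 higher, and 18 tissue differences were lower. Within each tissue same-numbered control and OA-AP samples deviated little together from their group means (correlations 0.0015 and -0.041 in the pancreas, -0.0060, 0.056 and -0.16 in adipose tissue). With 2 or 3 libraries in a group these values cannot show whether the number pairs samples. Whether same-numbered pancreas and adipose libraries share a mouse was not checked, and the tests between tissues took all 11 libraries as independent.

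Leaving out 1 library at a time gave 18 (without control replicate 2) to 31 (without OA-AP replicate 3) pancreas members called lower and 0 higher, 3 to 4 lower and 2 higher relative to their own mean, 1 (without OA-AP replicate 3) to 3 lower and 0 higher in adipose tissue, and 14 (without pancreas control replicate 2) to 20 tissue differences. The log2 ratios ran from -0.85 to -0.64 for complex III, -0.79 to -0.64 for complex IV and -0.70 to -0.63 for ATP synthase in the pancreas, and from -0.18 to 0.02, -0.10 to 0.02 and -0.16 to -0.04 in adipose tissue. The difference in the share of Cox4i2 between the OA-AP and control pancreas ran from -0.64 to 0.055 percentage points, and that of Cox7a1 from 0 to 0.867. The pancreas control group has 2 libraries, which limits every pancreas value. For 98 gene values recomputed under each alternative, it was asked whether the call and the direction of called values held. They held for 98 with TMM factors computed without acinar genes, 97 with DESeq2's size factors and 96 with DESeq2. With library totals alone they held for 63, while 24 values lost their call, 3 gained a call and 8 turned sign. The 98 hold the tested members of each tissue, but of the tissue differences only the 19 called with TMM scaling and that of Cox7a2l. The tissue differences of Cox4i1, Atp5d, Atp5c1, Uqcrh, Atp5f1 and Atp5g2, called higher with library totals alone, are thus not in these counts.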

Other observations

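Nuclear regulators of respiratory genes moved in both directions. Ppargc1a, the coactivator PGC-1 alpha that drives mitochondrial gene expression, fell in both tissues, with 3.77 ± 0.12 CPM in the control (SD, n = 2) and 0.52 ± 0.44 CPM in the OA-AP pancreas (SD, n = 3, log2 fold change -2.87, SE 0.58, edgeR adjusted p = 0.0072) and a fall from 11.4 ± 1.1 to 2.65 ± 0.49 CPM (SD, n = 3 each) in adipose tissue (log2 fold change -2.10, SE 0.18, edgeR adjusted p = 0.00056). It was also lower with library totals alone in both tissues (-2.16 and -2.26). Pprc1, a related coactivator, rose in both, by log2 fold changes of 1.26 in the pancreas and 1.49 in adipose tissue. In the pancreas Nrf1 (1.06), Yy1 (1.02) and Tfb2m (0.69) were also higher, making 4 of 10 tested regulators higher and 1 lower, and in adipose tissue Esrra (-0.66) and Ppargc1b (-1.37) were lower, making 3 of 12 lower and 1 higher. Nrf1 and Yy1 had log2 fold changes of 0.00 and 0.16 in adipose tissue and were not called there. Of all genes tested 13.5% were called lower and 16.2% higher in the pancreas, and 12.7% and 12.4% in adipose tissue.

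The counts of the mitochondrially encoded subunits over those of the members of the same complexes form a ratio that no scaling between libraries touches. It was 3.09 and 3.36 in the control pancreas and 3.48, 3.71 and 4.12 in the OA-AP pancreas. In adipose tissue it was 4.89, 4.41 and 5.08 in the control and 5.77, 6.07 and 6.08 in the OA-AP group. The groups did not overlap in either tissue, with mean log2 changes of 0.22 and 0.32. This ratio was chosen after the data were seen, it was not tested, and mt-Co1 and mt-Cytb make up nearly all of its mitochondrial counts.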
